A study of Mus musculus with 12 samples.

Results

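The genes described here are 49 genes of DNA replication and S phase, out of 23997 genes with a value in each library, followed in bone marrow-derived macrophages (BMDMs) of WT and Pim1-/- mice. They were named by symbol in a list, and each of the 49 symbols was found once in the deposited values. The list was drawn up with earlier results of these same libraries known, and which of their values it used is not stated, so each comparison of the groups is treated as used. Differences between the 4 groups are therefore given for these genes as a description, with no test.

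The 4 groups were untreated WT, untreated Pim1-/-, LPS-treated WT and LPS-treated Pim1-/- BMDMs, with 3 libraries each. LPS (lipopolysaccharide, a bacterial ligand of Toll-like receptor 4) was given at 100 ng/ml for 4 h, and untreated cells had no LPS. All groups came from male C57BL/6 mice of 8 to 10 weeks, and all cells had been grown in recombinant human macrophage colony-stimulating factor, a growth factor that drives macrophage precursors to divide and mature. Pim1-/- mice were made by CRISPR/Cas9 with a large deletion in Pim1, a serine/threonine kinase gene, so the loss was not limited to macrophages. Whether the 3 libraries of a group came from separate mice is not stated, so the p-values given below for other genes measure only the spread between these samples.

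DNA replication is prepared in G1, when the origin recognition complex, Cdc6 and Cdt1 load the ring-shaped Mcm2 to Mcm7 helicase onto origins. In S phase, Cdc45, the GINS complex and Mcm10 turn that ring into an active helicase, the replication factor C (RFC) complex loads the sliding clamp Pcna, and polymerases alpha, delta and epsilon copy the strands. Ribonucleotide reductase, thymidylate synthase and thymidine kinase supply the nucleotides, and chromatin assembly factors and Dnmt1 restore nucleosomes and DNA methylation behind the fork. Many of these genes are transcribed from late G1 under the control of E2F factors, and the RNAs are low in cells that have left the cycle. Macrophage precursors divide in culture, and LPS is known to hold BMDMs in G1.

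Values are FPKM (fragments scaled to transcript length and to the fragments of the library), a level per transcript length, so levels of different genes can be set side by side. Pim1 itself, as a check of the labels, was at 25.0, 21.5 and 22.3 FPKM in untreated WT and at 8.70, 8.00 and 9.51 FPKM in untreated Pim1-/- libraries, or 38.1% of the WT mean. In LPS-treated libraries the values were 665, 630.2 and 641 FPKM in WT and at 216, 205 and 236 FPKM in Pim1-/- libraries, or 33.9%. The value covers the whole gene, and what remains of its transcript was not resolved here. Depth had to be estimated from the smallest steps between values, and 1 fragment in 1 kb of transcript was worth 0.022 to 0.0268 FPKM in untreated and 0.0313 to 0.0474 FPKM in LPS-treated libraries. Sums of all FPKM were 452511 to 489710 in untreated and 713307 to 849323 in LPS-treated libraries. If the libraries were given equal sums, the median of all genes would shift by -0.67 (log2) for LPS in WT and by -0.58 for LPS in Pim1-/- cells. LPS effects below are for the values as deposited, and members whose direction depends on this choice are named.

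All 10 macrophage markers on a list were at 1 FPKM or more in at least 1 group, and their summed level was lower in Pim1-/- libraries. It was 28075.5 to 30123.9 FPKM in untreated WT against 14539.2 to 15434.4 FPKM in untreated Pim1-/- libraries, and 31617.3 to 32085.1 against 16306.6 to 18149 FPKM after LPS. Most of that sum was 1 gene, the lysozyme gene Lyz2, at a mean of 26302 FPKM in untreated WT and 13297 FPKM in untreated Pim1-/- cells. Without Lyz2 the sums were 2631 to 2717 against 1641 to 1807 FPKM untreated, and 5055 to 5213 against 3534 to 3702 FPKM after LPS. Csf1r, the receptor for macrophage colony-stimulating factor, averaged 764 FPKM in untreated WT and 254 FPKM in untreated Pim1-/- cells, whereas Cd14, the LPS co-receptor, averaged 167 and 160.3 FPKM. The 5 stem and progenitor markers summed to 2.5 to 2.82 FPKM in untreated WT and 13.5 to 14.1 FPKM in untreated Pim1-/- libraries. Cd34 averaged 0.844 FPKM in untreated WT and 11.5 FPKM in untreated Pim1-/- cells, where it was most of the sum. Kit, most of the sum in untreated WT, averaged 1.74 and 2.31 FPKM. Flt3, Myb and Gata2 stayed under 0.1 FPKM on average in each group. Lists for erythroid, mast, T and NK, B, dendritic and granulocytic cells had no gene at 1 FPKM in any group mean, and 1 of 4 B cell, 4 of 5 T and NK cell, 2 of 4 mast cell and 2 of 4 erythroid markers were at 0 in all 12 libraries. The 5 stromal markers summed to at most 11.3 FPKM and were lower in Pim1-/- libraries. These marker levels moved with genotype, as the replication genes did, and their part in the results below was not tested. In bulk RNA, fewer cells of a type and less RNA per cell cannot be told apart, so a higher level of a replication gene may be more cells in S phase or more RNA in each.

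**Figure D1:**
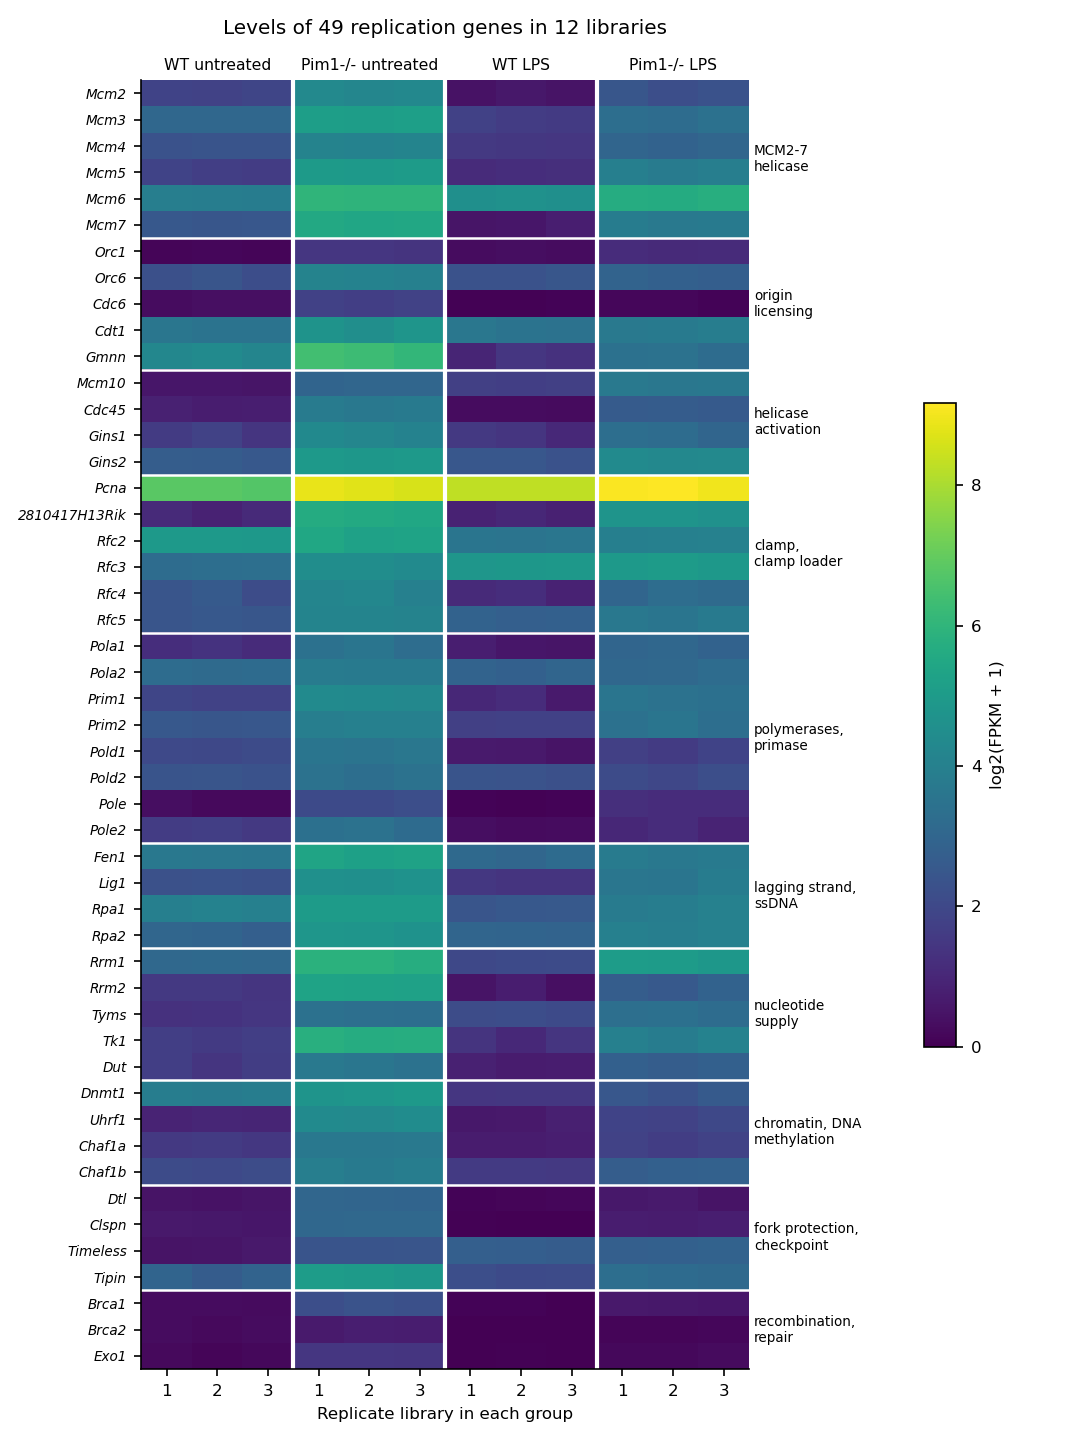
Level of each of the 49 genes, as log2(FPKM + 1) in color, in the 12 libraries; rows are grouped by role and columns by genotype and treatment, with the replicate number below. The untreated Pim1-/- block is the brightest for nearly all rows, the LPS-treated WT block the darkest for most rows, and Pcna is the highest gene in every library.

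E2F factors bind short words in promoters, so the promoters of these genes were searched for them. RefSeq promoters on GRCm38.p6 (250 bases before to 50 after the start) were at hand for 40 of the 49 members, with 2810417H13Rik matched by its newer symbol Pclaf. Only the first window listed for each gene was searched, so any other start of a gene is not covered. An E2F word, meaning TTTCCCGC, TTTCGCGC, TTTGCCGC or TTTGGCGC on either strand, was present in 15 of these 40, or 37.5%. The same words were present in 19% of 58 promoters of other replication genes, in 4.41% of 8599 promoters of the genes tested and in 2.32% of all 27025 promoters. CCAAT, on either strand, was in 62.5% of member promoters, 48.3% of those of other replication genes, 39.2% of those of the genes tested and 37.9% of all promoters. The cell cycle homology words TTTGAA and TTCGAA, which mark genes of G2 and mitosis, were in 15% of member promoters. They were in 19% of promoters of other replication genes, 14.2% of those of the genes tested and 19.4% of all promoters. Of the 21 E2F words in members, 13 began before and 8 at or after the start, between positions -168 and 40 counted from the start, and words of opposite strands can overlap.

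The 170 bases before the start and the first 10 after it are shown for 7 members, 6 of them with an E2F word (in capitals). The other is Tk1, which had none in the window searched yet was among the members with the largest difference between genotypes. Each is written 5′ to 3′ on the strand of the gene. In Mcm5 and Mcm6 a pair of words on opposite strands overlaps and reads as 1 block, and Mcm6 has a further word nearer the start.
Mcm5, chr8:75109339-75109518, + strand: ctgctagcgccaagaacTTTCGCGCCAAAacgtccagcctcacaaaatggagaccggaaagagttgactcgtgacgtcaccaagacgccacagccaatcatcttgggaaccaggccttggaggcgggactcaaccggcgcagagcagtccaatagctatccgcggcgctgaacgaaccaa
Mcm6, chr1:128359696-128359875, - strand: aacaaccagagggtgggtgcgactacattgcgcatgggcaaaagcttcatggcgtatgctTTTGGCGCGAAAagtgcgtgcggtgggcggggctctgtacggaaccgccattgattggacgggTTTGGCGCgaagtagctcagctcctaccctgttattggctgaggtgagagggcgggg
Cdc6, chr11:98907981-98908160, + strand: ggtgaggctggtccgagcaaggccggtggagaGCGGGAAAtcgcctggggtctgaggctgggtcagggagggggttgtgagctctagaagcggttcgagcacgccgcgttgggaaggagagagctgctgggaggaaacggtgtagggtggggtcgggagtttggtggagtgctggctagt
Orc1, chr4:108579284-108579463, + strand: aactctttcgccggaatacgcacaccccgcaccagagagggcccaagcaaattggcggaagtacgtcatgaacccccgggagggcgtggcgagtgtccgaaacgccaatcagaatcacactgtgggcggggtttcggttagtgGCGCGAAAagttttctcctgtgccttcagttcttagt
Dtl, chr1:191575535-191575714, - strand: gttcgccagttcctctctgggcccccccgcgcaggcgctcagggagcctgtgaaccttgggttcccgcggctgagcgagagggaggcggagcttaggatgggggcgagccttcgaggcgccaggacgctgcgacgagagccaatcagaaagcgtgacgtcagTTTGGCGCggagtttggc
2810417H13Rik (Pclaf), chr9:65890153-65890332, + strand: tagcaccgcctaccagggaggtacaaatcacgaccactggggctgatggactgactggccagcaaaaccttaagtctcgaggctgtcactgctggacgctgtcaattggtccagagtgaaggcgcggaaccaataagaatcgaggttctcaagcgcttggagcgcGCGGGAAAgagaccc
Tk1, chr11:117826005-117826184, - strand: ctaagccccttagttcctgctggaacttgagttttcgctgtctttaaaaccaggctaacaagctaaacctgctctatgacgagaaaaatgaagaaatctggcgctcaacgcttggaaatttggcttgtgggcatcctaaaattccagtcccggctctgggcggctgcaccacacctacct

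A match is a description of the letters only. The 15 members with an E2F word had a median genotype difference of 2.07 on the log2(FPKM + 1) scale without LPS, and the 25 members whose promoter had none had 1.98. After LPS the medians were 0.81 and 1.21. The 9 members without a promoter in the table had 1.84 and 1.48.

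Without LPS, each of the 49 genes was higher in Pim1-/- than in WT cells, and for each of them the 3 Pim1-/- values lay above the 3 WT values. Among all 10581 genes tested, 34.2% had groups that did not overlap in this direction. The ratio of mean FPKM ran from 1.34 for Rfc2 to 44.9 for 2810417H13Rik, with a median of 5.65. On the log2(FPKM + 1) scale the median difference was 1.98 over the 49 members and -0.05 over the genes tested. Calls were made in limma at a change above 2-fold, p under 0.05 and FDR (Benjamini-Hochberg) under 0.1, among genes at 1 FPKM or more in at least 3 libraries. Of the members, 48 were tested, 45 were called higher and 0 lower, beside 4.40% of all genes called higher and 3.37% called lower. Nothing is read from that count, since the list was drawn up with such values known. Brca2, at 0.685 FPKM or less in every library, was the member that was not tested, and Rfc2, Pola2 and Dnmt1 were tested and not called. Orc1, Cdc6, Cdc45, Pole, Uhrf1, Dtl, Clspn, Brca1 and Exo1 had no WT library at 1 FPKM, so these 9 entered the test only through Pim1-/- libraries and had to differ.

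After LPS the genotype difference was smaller in most genes, though 47 of 49 still had all 3 Pim1-/- values above all 3 WT values, beside 35.6% of the genes tested. Timeless overlapped, and Pold2 was lower in all 3 Pim1-/- libraries, as were 41.8% of the genes tested. The median ratio of means was 4.63 and the median log2(FPKM + 1) difference 1.16, against -0.03 over the genes tested, and it was 1.89 with a pseudocount of 0.1. Here 31 of 48 members were called higher and 0 lower, beside 3.51% and 5.15% of all genes. The comparisons of LPS-treated with untreated cells and of the genotypes share libraries, so the values of each are given side by side. Under 3 other scalings of the libraries no member changed the sign of its genotype difference, with or without LPS.

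**Figure D2:**
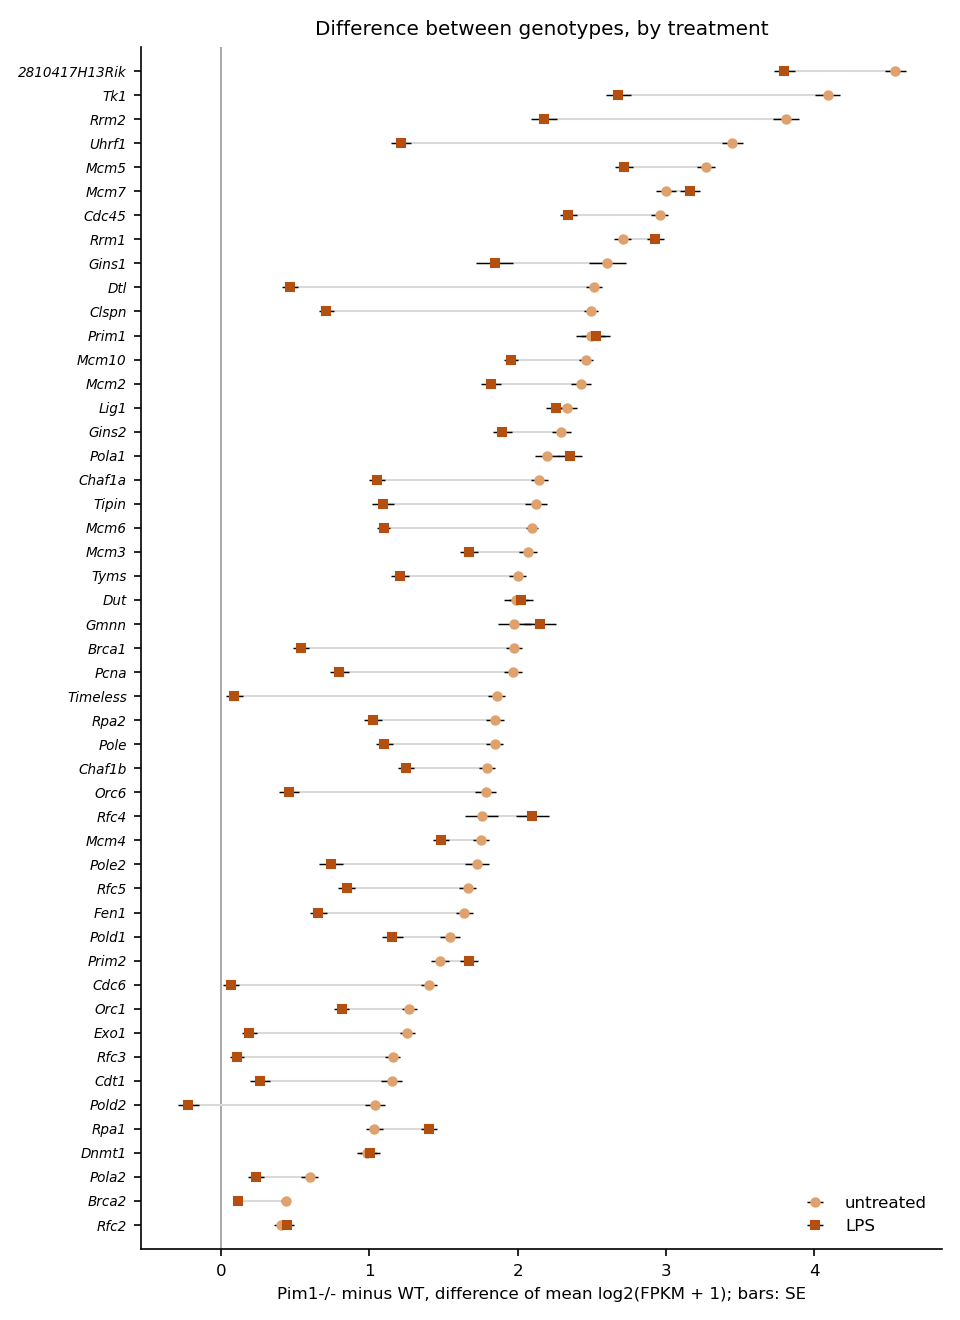
Difference between Pim1-/- and WT cells in mean log2(FPKM + 1) for each member, without LPS (circles) and after LPS (squares); bars are standard errors and each group has 3 libraries. All circles lie right of 0, and Pold2 is the member whose square lies left of it, at -0.22.

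The Mcm2 to Mcm7 helicase subunits, which form 1 ring with equal parts of each, were all higher in Pim1-/- cells but by unequal amounts. Mcm5 was at 2.62, 2.27 and 2.11 FPKM in untreated WT and 31.4, 30.5 and 31.6 FPKM in untreated Pim1-/- libraries, a ratio of 13.3. Mcm7 was at 4.83, 4.45 and 4.67 FPKM against 45.7, 42.2 and 44.9 FPKM, a ratio of 9.52. Mcm2 was at 2.58, 2.47 and 2.76 FPKM against 19.1, 17.5 and 18.6 FPKM, a ratio of 7.06. In each of these genes the groups were far apart compared with the spread of the replicates. Mcm3 averaged 7.43 ± 0.0275 FPKM (SD, n = 3) in WT and 34.4 ± 0.934 in Pim1-/- cells. Mcm4 averaged 4.15 ± 0.159 and 16.4 ± 0.377 FPKM, the smallest ratio of the ring at 3.94. Mcm6 was at 14.1, 13.8 and 13.5 FPKM in WT and 63.5, 62.3 and 61.2 FPKM in Pim1-/- libraries, and was the highest subunit in both. The log2(FPKM + 1) differences ran from 1.75 ± 0.05 (SE) for Mcm4 to 3.27 ± 0.06 for Mcm5.

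RNA levels of the ring subunits lay further apart after LPS in both genotypes, and furthest in WT cells. The highest subunit was 5.92 times the lowest in untreated WT cells (Mcm6 over Mcm5), 3.81 times in untreated Pim1-/- cells (Mcm6 over Mcm4), 55.3 times in LPS-treated WT cells (Mcm6 over Mcm2) and 12.6 times in LPS-treated Pim1-/- cells (Mcm6 over Mcm2). Mcm7 was at 0.427, 0.467 and 0.693 FPKM in LPS-treated WT libraries and 13.5, 12.0 and 12.5 FPKM in LPS-treated Pim1-/- libraries. Mcm2 was at 0.364, 0.506 and 0.391 FPKM and at 4.47, 3.65 and 3.93 FPKM in the same groups. Both were below their untreated level in each genotype, with the lowest LPS-to-untreated ratios of the ring in WT. Mcm6 went the other way in WT, to 23.0, 24.1 and 22.6 FPKM, while in Pim1-/- cells it was at 50.4, 48.9 and 53.0 FPKM, below its untreated values. The LPS difference of Mcm6 in WT was 0.71 ± 0.04 on the log2(FPKM + 1) scale as deposited and -0.06 with equal library sums, so its direction rests on the scaling, whereas Mcm2, Mcm3, Mcm4, Mcm5 and Mcm7 were lower under both.

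**Figure D3:**
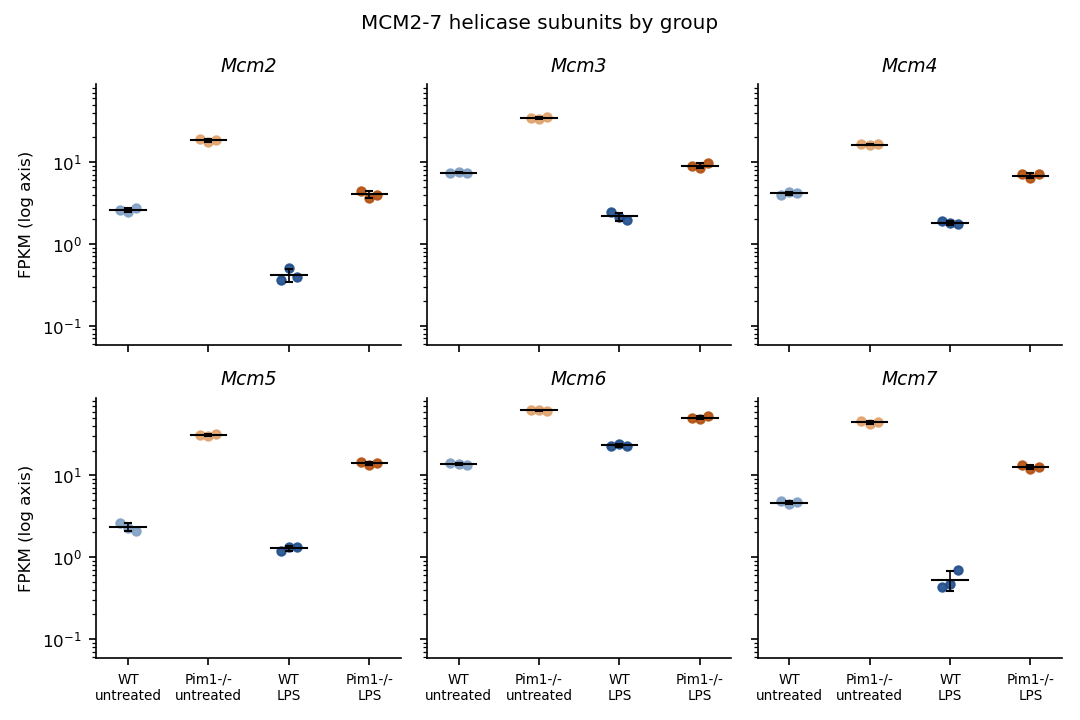
FPKM of Mcm2 to Mcm7 on a shared log axis in the 4 groups; points are the 3 libraries, lines the means and bars the SD. In every panel the Pim1-/- points lie above the WT points of the same treatment, and Mcm6 is the subunit whose LPS-treated WT points lie above the untreated WT points.

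The licensing genes had a median genotype difference of 1.40 without LPS on the log2(FPKM + 1) scale, against 2.26 for the helicase ring. This scale understates low genes, and as ratios of mean FPKM the medians were 4.10 and 5.85. Cdt1 and Gmnn parted after LPS. Cdt1, which brings the helicase ring to origins, was at 11.2, 10.2 and 10.4 FPKM in untreated WT and 25.2, 22.3 and 26.6 FPKM in untreated Pim1-/- libraries. Gmnn, the inhibitor of Cdt1, was at 18.1, 20.1 and 16.9 FPKM against 82.8, 76.5 and 66.9 FPKM. After LPS, Cdt1 was at 11.4, 10.4 and 10.1 FPKM in WT and 12.1, 12.7 and 14 FPKM in Pim1-/- libraries. Its WT values overlapped those without LPS. Gmnn was at 0.925, 1.71 and 1.45 FPKM in LPS-treated WT and 9.86, 9.97 and 8.37 FPKM in LPS-treated Pim1-/- libraries, with LPS differences of -3.05 ± 0.11 and -2.88 ± 0.11 (log2(FPKM + 1), SE), the lowest of all members on that scale. Within a library, Gmnn over Cdt1 averaged 1.74 ± 0.207 in untreated WT, 3.07 ± 0.493 in untreated Pim1-/-, 0.130 ± 0.0436 in LPS-treated WT and 0.732 ± 0.117 in LPS-treated Pim1-/- cells.

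Cdc6, the loading ATPase, was at 0.250, 0.314 and 0.288 FPKM in untreated WT and 2.41, 2.22 and 2.53 FPKM in untreated Pim1-/- libraries. After LPS it was at 0.0412 to 0.0551 FPKM in WT and at 0.0728 to 0.109 FPKM in Pim1-/- libraries, so both genotypes ended below the untreated WT level, where few fragments support a value. Orc6, an origin recognition subunit, averaged 3.84 and 15.6 FPKM without LPS and 4.15 and 6.07 FPKM after it, in WT and Pim1-/- cells. Orc1, the subunit whose RNA is known to vary with the cycle, averaged 0.111 and 1.68 FPKM and then 0.250 and 1.2 FPKM. Of these 5 licensing genes, 5 were called higher without LPS, beside 4.40% of all genes, and 1, Gmnn, after it, beside 3.51%.

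The 4 genes of helicase activation were called higher in Pim1-/- cells under both conditions, as were 4.40% of all genes without and 3.51% with LPS. Cdc45, the helicase cofactor, was at 0.807, 0.647 and 0.724 FPKM in untreated WT and 13.2, 11.6 and 12.5 FPKM in untreated Pim1-/- libraries, a log2(FPKM + 1) difference of 2.96 ± 0.06. With LPS it was at 0.245, 0.227 and 0.212 FPKM against 5.22, 5.44 and 5.00 FPKM. Gins2, of the GINS complex, showed the smallest difference of the 4, at 5.19 ± 0.414 FPKM in untreated WT and 29.3 ± 1.31 FPKM in untreated Pim1-/- cells. Mcm10, which joins the helicase to polymerase alpha, was higher after LPS in both genotypes and under each scaling, from 0.455 to 2.29 FPKM in WT and from 7.02 to 11.7 FPKM in Pim1-/- cells (means of 3).

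Among clamp and clamp loader genes were the members with the largest and the smallest difference. 2810417H13Rik, which encodes the Pcna-associated factor Pclaf, was at 1.16, 0.835 and 1.11 FPKM in untreated WT and 49.3, 46.5 and 43.6 FPKM in untreated Pim1-/- libraries. With LPS it stood at 0.819, 1.02 and 0.804 FPKM in WT and 26, 25.7 and 23.7 FPKM in Pim1-/- libraries. In WT cells its values with and without LPS overlapped. Pcna, the sliding clamp, was the most abundant member in each group, at 113, 113 and 104 FPKM in untreated WT and 471, 435 and 395 FPKM in untreated Pim1-/- libraries. After LPS, Pcna was at 311, 314 and 314 FPKM in WT and 561, 578 and 498 FPKM in Pim1-/- libraries. Its LPS difference was 1.5 ± 0.06 in WT, where it was positive under each scaling, and 0.33 ± 0.06 in Pim1-/- cells, where it was -0.33 with equal library sums and -0.56 after quantile normalization. 2810417H13Rik over Pcna averaged 0.00945 and 0.107 in untreated WT and Pim1-/- libraries and 0.00281 and 0.0461 after LPS.

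The RFC subunits, which share 1 clamp-loading complex, also parted. Rfc2 averaged 29.8 ± 0.695 FPKM in untreated WT and 39.8 ± 2.69 FPKM in untreated Pim1-/- cells, the smallest ratio of any member. Rfc4 was at 4.30, 5.00 and 3.42 FPKM in untreated WT and 17.0, 17.8 and 15 FPKM in untreated Pim1-/- libraries, and the gap was wider after LPS, at 1.13, 1.31 and 0.835 FPKM against 7.01, 8.77 and 8.06 FPKM. Rfc3 was at 8.5, 9.06 and 9.13 FPKM against 21.6, 21.5 and 20.1 FPKM without LPS. After LPS, Rfc3 was at 27.5, 28.0 and 28.8 FPKM in WT and 30.3, 31.6 and 29.1 FPKM in Pim1-/- libraries, a ratio of 1.08. Rfc5 averaged 4.55 and 16.6 FPKM, then 6.08 and 11.7 FPKM. Thus LPS-treated WT cells had more Rfc3 and Rfc5 RNA than untreated WT cells and less Rfc2 and Rfc4, although with equal library sums Rfc5 was lower too.

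In each of the 4 pairs of polymerase and primase subunits, the catalytic subunit had the larger log2(FPKM + 1) difference between untreated genotypes. Prim1, the primase catalytic subunit, was at 2.79, 2.54 and 2.53 FPKM in untreated WT and 20.0, 19.7 and 18.3 FPKM in untreated Pim1-/- libraries. Prim2, the large primase subunit, was at 4.75, 4.52 and 4.64 FPKM against 14.1, 14.9 and 15 FPKM. After LPS, Prim1 averaged 0.941 and 10.1 FPKM and Prim2 averaged 2.41 and 9.87 FPKM in WT and Pim1-/- cells. Pola1, the catalytic subunit of polymerase alpha, averaged 1.33 and 9.73 FPKM without LPS and 0.543 and 6.86 FPKM after it. Its accessory subunit Pola2 was at 8.39, 7.98 and 8.27 FPKM in untreated WT and at 12.9 FPKM in each untreated Pim1-/- library, then at 6.49, 6.03 and 6.92 FPKM in LPS-treated WT and 7.41, 7.56 and 8.38 FPKM in LPS-treated Pim1-/- libraries. Pola1 over Pola2 averaged 0.163 and 0.753 without LPS and 0.0842 and 0.886 after it.

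Polymerase delta had the single reversed member. Pold2, its accessory subunit, was at 4.28, 4.32 and 3.94 FPKM in untreated WT and 10.1, 8.91 and 9.95 FPKM in untreated Pim1-/- libraries. After LPS it was at 4.19, 4.07 and 3.73 FPKM in WT, close to its untreated level, and at 3.32, 2.87 and 3.67 FPKM in Pim1-/- libraries, with the highest Pim1-/- value just under the lowest WT value. Pold1, the catalytic subunit, was lower after LPS in both genotypes, with means of 3.10 and 0.493 FPKM in WT and 11.0 and 2.33 FPKM in Pim1-/- cells, and stayed higher in Pim1-/- cells. For polymerase epsilon, Pole averaged 0.204 and 3.33 FPKM without LPS and 0.0540 and 1.26 FPKM after it, while Pole2 averaged 2.07 and 9.16 FPKM and then 0.229 and 1.06 FPKM.

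Of the genes that finish the lagging strand or coat single-stranded DNA, Lig1 had the largest and Rpa1 the smallest genotype difference without LPS. Lig1, the ligase that seals Okazaki fragments, was at 3.89, 4.00 and 3.72 FPKM in untreated WT and 23.2, 22.9 and 24.5 FPKM in untreated Pim1-/- libraries, and after LPS at 1.83, 1.57 and 1.60 FPKM against 11.2, 10.7 and 13.5 FPKM. Rpa1, the large subunit of replication protein A, was at 14.6, 15.6 and 14.9 FPKM against 32.0, 31.6 and 31.8 FPKM, and after LPS at 4.37, 4.73 and 4.90 FPKM against 13, 13.7 and 15.2 FPKM. Rpa1 was thus a member whose ratio was larger after LPS, at 3.00 against 2.11. Rpa2 averaged 6.56 and 26.1 FPKM, then 6.81 and 14.9 FPKM, so within WT cells the 2 replication protein A subunits answered LPS differently as deposited, although with equal library sums Rpa2 was lower as well, at -0.66. Fen1, the flap endonuclease, averaged 11.6 and 38.2 FPKM and then 7.69 and 12.7 FPKM.

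All 5 nucleotide supply genes were called higher in Pim1-/- cells with and without LPS, against the same 3.51% and 4.40% of all genes. Tk1, the salvage thymidine kinase of S phase, was at 2.23, 1.92 and 2.22 FPKM in untreated WT and 53.9, 51.0 and 51.9 FPKM in untreated Pim1-/- libraries, then at 1.64, 1.07 and 1.66 FPKM in LPS-treated WT and 15, 13.3 and 15.6 FPKM in LPS-treated Pim1-/- libraries. Dut, which removes dUTP, showed the smallest log2 difference of the 5, at 2.29, 1.68 and 2.17 FPKM against 12.0, 11.2 and 10.0 FPKM. Tyms, which makes dTMP, was higher after LPS in WT cells, with means of 1.58 and 3.38 FPKM, and averaged 9.33 and 9.10 FPKM in Pim1-/- cells. A Tyms pseudogene in the same values reached at most 0.0189 FPKM, and how reads shared with it were counted is not given in the sources used here.

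Ribonucleotide reductase is built from the large subunit Rrm1 and the S phase subunit Rrm2, and their balance differed. Rrm1 was at 7.57, 7.73 and 7.57 FPKM in untreated WT and 57.2, 56.9 and 52.2 FPKM in untreated Pim1-/- libraries. Rrm2 was at 1.85, 1.84 and 1.67 FPKM against 39.5, 37.7 and 37.3 FPKM. After LPS, Rrm1 was at 3.00, 3.15 and 3.32 FPKM in WT and 32.6, 31.6 and 27.8 FPKM in Pim1-/- libraries. Rrm2 was at 0.409, 0.675 and 0.312 FPKM in LPS-treated WT and 5.5, 4.94 and 6.4 FPKM in LPS-treated Pim1-/- libraries. Rrm2 over Rrm1 averaged 0.235 ± 0.0124 in untreated WT, 0.689 ± 0.0268 in untreated Pim1-/-, 0.148 ± 0.0609 in LPS-treated WT and 0.185 ± 0.0394 in LPS-treated Pim1-/- cells. The ratio of Pim1-/- to WT means was 7.27 without and 9.72 with LPS for Rrm1, and 21.3 and 12.1 for Rrm2. The LPS-treated groups overlapped in the ratio of the subunits.

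**Figure D4:**
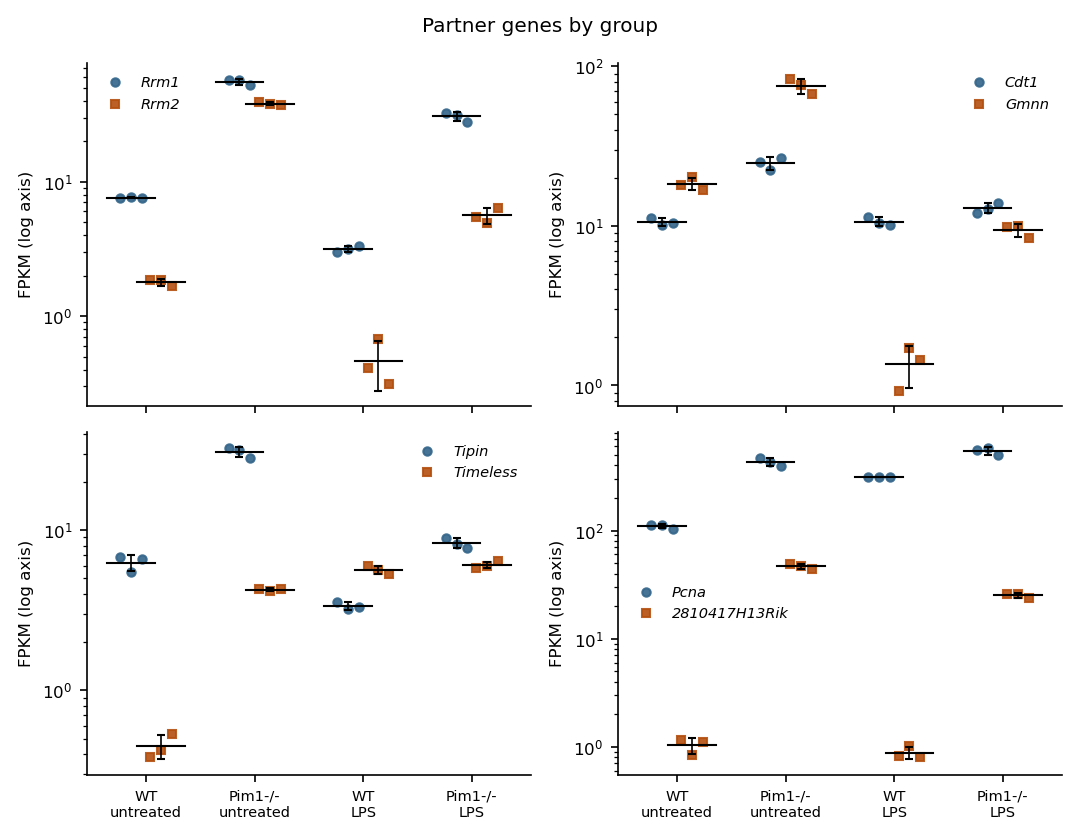
FPKM of 4 pairs of partner genes on log axes in the 4 groups; points are the 3 libraries, lines the means and bars the SD. Rrm2 lies far below Rrm1 after LPS in both genotypes, and Gmnn lies far below Cdt1 after LPS in WT cells. Timeless lies above Tipin in LPS-treated WT cells alone, and 2810417H13Rik stays below Pcna throughout.

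Uhrf1 recruits Dnmt1 to newly copied DNA, and these partners had the largest and the smallest genotype difference without LPS among the chromatin and DNA methylation genes. Uhrf1 was at 0.870, 0.988 and 0.931 FPKM in untreated WT and 20.1, 19.2 and 20.9 FPKM in untreated Pim1-/- libraries. Dnmt1, the maintenance methyltransferase, was at 13.7, 13 and 13.9 FPKM against 25.9, 27.4 and 29.7 FPKM. After LPS, Uhrf1 was at 0.490, 0.542 and 0.768 FPKM in WT and 2.63, 2.5 and 2.97 FPKM in Pim1-/- libraries. Dnmt1 was at 1.74, 1.79 and 1.79 FPKM and at 4.64, 3.99 and 5.09 FPKM in the same groups. Uhrf1 over Dnmt1 averaged 0.0690 and 0.726 without LPS and 0.338 and 0.593 after it. The chromatin assembly factor subunits Chaf1a and Chaf1b had ratios of 6.23 and 4.22 without LPS and 3.75 and 3.10 after it.

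All 4 fork protection and checkpoint genes had a smaller genotype difference after LPS than without it on the log2(FPKM + 1) scale. As a ratio of mean FPKM, Clspn went the other way, at 14.7 without and 43.9 with LPS, where its WT values were near 0. Dtl, which directs the destruction of Cdt1 in S phase, was at 0.403, 0.376 and 0.420 FPKM in untreated WT and 7.22, 7.03 and 6.78 FPKM in untreated Pim1-/- libraries, and after LPS at 0.0534, 0.0781 and 0.107 FPKM against 0.489, 0.572 and 0.412 FPKM. Clspn, the adaptor of checkpoint kinase Chek1, was at 0.541, 0.506 and 0.485 FPKM against 7.38, 7.66 and 7.51 FPKM without LPS. With LPS it was at 0.0358, 0.00934 and 0 FPKM in WT, at or near the value of single fragments, and at 0.664, 0.620 and 0.696 FPKM in Pim1-/- libraries. Timeless was at 0.386, 0.424 and 0.533 FPKM in untreated WT and 4.28, 4.16 and 4.31 FPKM in untreated Pim1-/- libraries. After LPS, Timeless was at 5.94, 5.66 and 5.35 FPKM in WT and 5.84, 5.96 and 6.41 FPKM in Pim1-/- libraries, and the genotypes overlapped. Tipin, with which Timeless forms a complex, averaged 6.28 and 30.7 FPKM without LPS and 3.36 and 8.30 FPKM after it. Timeless over Tipin was 0.0719 ± 0.0133 in untreated WT and 1.68 ± 0.0789 in LPS-treated WT cells, against 0.139 ± 0.0117 and 0.735 ± 0.0870 in Pim1-/- cells.

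The recombination genes were at low levels. Brca1 was at 0.234, 0.222 and 0.208 FPKM in untreated WT and 3.61, 4.15 and 3.67 FPKM in untreated Pim1-/- libraries, and after LPS at 0.0531, 0.0554 and 0.0148 FPKM against 0.560, 0.503 and 0.473 FPKM. Brca2 was at 0.241, 0.166 and 0.244 FPKM against 0.578, 0.685 and 0.669 FPKM without LPS, and at 0.0178 FPKM or less against 0.0884 to 0.118 FPKM after it. Exo1 averaged 0.135 and 1.70 FPKM without LPS.

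Most of these genes were lower after LPS in both genotypes. In WT cells 35 of 49 members had LPS values that lay wholly below the untreated ones and 8 wholly above, beside 44.9% and 45.5% of the genes tested. In Pim1-/- cells 44 lay below and 4 above, beside 42.1% and 41.7%. The median log2(FPKM + 1) difference was -0.49 in WT and -1.10 in Pim1-/- cells, with 0.00151 and -0.0128 over the genes tested. In WT 11 members were called lower and 4 higher (14.7% and 20.1% of all genes), and in Pim1-/- cells 27 were called lower and 0 higher (10.4% and 14.6%). With a pseudocount of 0.1 the median in WT was -1.01 and 24 members were called lower, beside 21.1% of all genes. With equal library sums the member medians were -0.87 and -1.68, while those of all genes were -0.67 and -0.58.

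The 4 members called higher after LPS in WT were Mcm10, Pcna, Rfc3 and Timeless, and they were also the 4 that were wholly above in both genotypes. Under equal library sums Pcna, Rfc3 and Timeless had negative LPS differences in Pim1-/- cells, at -0.33, -0.13 and -0.13, and Mcm10 stayed positive in both genotypes. Tyms, Mcm6, Orc1 and Rfc5 were wholly above in WT alone, and of these Mcm6 and Rfc5 turned negative with equal sums. Orc6, Cdt1 and Rpa2, whose WT values overlapped, turned negative with equal sums, Cdt1 also with quantile normalization, and Gins1, 2810417H13Rik and Pold2 turned positive with quantile normalization. The 35 members wholly below in WT were wholly below in Pim1-/- cells too.

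The response to LPS was lower in Pim1-/- than in WT cells for 38 of 49 members on the log2(FPKM + 1) scale, with a median difference of -0.74 against -0.00270 over the genes tested. Of 48 tested, 16 were called lower and 0 higher, beside 4.43% and 2.24% of all genes. The 5 lowest were Uhrf1 at -2.24 ± 0.10 (SE), Dtl at -2.05 ± 0.08, Clspn at -1.79 ± 0.07, Timeless at -1.77 ± 0.08 and Rrm2 at -1.64 ± 0.12. Timeless was higher after LPS by 2.2 in WT and 0.43 in Pim1-/- cells. Uhrf1 was lower after LPS in both, at -0.27 in WT and -2.51 in Pim1-/- cells, and Dtl, Clspn and Rrm2 had the same order on this scale. The 5 highest were Rpa1 at 0.37 ± 0.08, Rfc4 at 0.34 ± 0.15, Rrm1 at 0.22 ± 0.08, Prim2 at 0.20 ± 0.09 and Gmnn at 0.17 ± 0.16, and none of these was called. As ratios of mean FPKM, LPS over untreated was 0.147 for Rrm2 and 0.135 for Uhrf1 in Pim1-/- cells, against 0.260 and 0.646 in WT cells. Not every member with a negative difference was lower by these ratios. Pole, with a difference of -0.74, was at 0.379 in Pim1-/- and 0.265 in WT cells, and Pole2, with -0.98, at 0.116 and 0.111. For Clspn these ratios also ran the other way, at 0.0878 in Pim1-/- and 0.0295 in WT cells. Its LPS-treated WT values rest on an estimated 4.01, 1.01 and 0 fragments, so the sign of its difference depends on the scale. With a pseudocount of 0.1 in place of 1 the differences were -0.96 for Rrm2 and -0.91 for Clspn, below the 2-fold limit, and 1.14 for Mcm7, which had 0.16 with a pseudocount of 1. Mcm2, Cdc45, Pold1 and Lig1 turned from negative to positive, Mcm2 from -0.61 to 0.22, Cdc45 from -0.62 to 0.09 and Lig1 from -0.07 to 0.18, so that 34 of 49 members were negative in place of 38. Without the first untreated Pim1-/- library 9 members were called lower, of 43 that then passed the limit on low values. Cdc6, Dtl, Clspn, Brca1 and Exo1 fail that limit without any of the untreated Pim1-/- libraries.

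**Figure D5:**
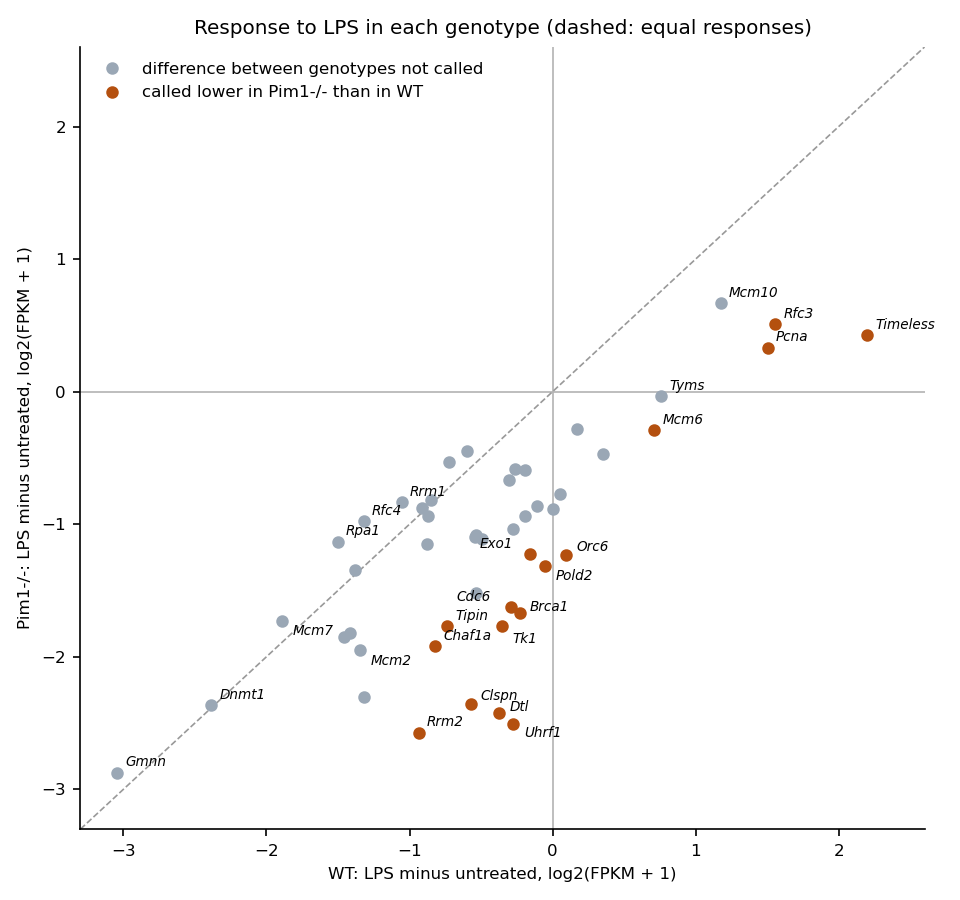
LPS-treated minus untreated mean log2(FPKM + 1) of each member in WT (x axis) and Pim1-/- cells (y axis), with equal responses on the dashed line; the 16 members called lower in Pim1-/- cells are in orange. Most members lie below the line and left of 0, with Timeless, Rfc3, Pcna and Mcm10 positive in both genotypes.

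In the values as deposited, LPS did not bring most members of the Pim1-/- cells down to the level of untreated WT cells. In 36 of 49 all 3 LPS-treated Pim1-/- values lay above all 3 untreated WT values, beside 45.6% of the genes tested. In 8 they lay below (Cdc6, Gmnn, Rfc2, Pold1, Pold2, Pole2, Dnmt1 and Brca2), beside 43.0%, and in 5 they overlapped (Pola2, Fen1, Rpa1, Dtl and Exo1). Sums of all FPKM were 713307 to 743912 in LPS-treated Pim1-/- and 467484 to 489710 in untreated WT libraries. The counts were not repeated with equal sums, so they rest on the scaling as deposited. Members with a low WT level had the larger ratios without LPS (Spearman's rho -0.72 across the 49 genes between log2 mean WT level and log2 ratio). The points share libraries and the WT level enters both axes, so this is a description. Replicates of the members were close, with a median coefficient of variation of 5.34% in untreated WT, 4.5% in untreated Pim1-/-, 5.58% in LPS-treated WT and 7.00% in LPS-treated Pim1-/- cells, over members at 1 FPKM or more in the group.

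A further 70 replication genes were listed by role, and the list named none of the 49 members. It was drawn up with results of these data known, and 19 of the 70 passed the limit on low values through Pim1-/- libraries alone. Without LPS 33 of 70 were called higher in Pim1-/- cells and 1 lower (limma, FDR under 0.1), beside 4.40% and 3.37% of all genes, and the median difference was 0.95. After LPS 17 were called higher and 2 lower, beside 3.51% and 5.15%, with a median of 0.45. LPS-treated against untreated, 11 were called lower and 7 higher in WT, beside 14.7% and 20.1%, and 25 lower and 3 higher in Pim1-/- cells, beside 10.4% and 14.6%. The difference in response was called lower in Pim1-/- cells for 12 of 70 and higher for 0, beside 4.43% and 2.24%.

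The genes with the largest genotype difference without LPS in their role follow, and those given were higher in Pim1-/- cells. They were picked by that difference, so a p-value given for it adds no support. Rad51ap1, which acts in recombination, was at 0.387, 0.453 and 0.471 FPKM in untreated WT and 13, 13.3 and 11.9 FPKM in untreated Pim1-/- libraries (log2 difference 3.26 ± 0.06). Asf1b, a histone chaperone, averaged 4.20 and 41.0 FPKM (3.01 ± 0.06, limma adjusted p 4.5e-15) and Chek1, the checkpoint kinase that Clspn serves, averaged 0.173 and 4.90 FPKM (2.33 ± 0.07). Dscc1 of the alternative clamp loader, Wdhd1 of the replisome and Cdc7, the kinase that starts origin firing, differed by 2.22 ± 0.06, 1.84 ± 0.07 and 1.75 ± 0.07. Rad51ap1, Chek1, Dscc1 and Cdc7 had no WT library at 1 FPKM and entered the test only through Pim1-/- libraries, so no p is given for them. Rnaseh2b of ribonuclease H2 and Pole4 of polymerase epsilon differed by 1.19 ± 0.05 and 1.05 ± 0.05. For Pole4 the LPS difference in both genotypes, and for Rnaseh2b that in Pim1-/- cells, depended on the scaling.

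The other genes called lower in Pim1-/- cells were Samhd1 and Mcmbp. They were named for being called, from a list drawn up with results known, so their p-values add no support. Samhd1, which breaks down dNTPs and so opposes the nucleotide supply genes above, was at 54.0, 54.5 and 55.8 FPKM in untreated WT and at 24.3 FPKM in each untreated Pim1-/- library (-1.14 ± 0.04, limma adjusted p 3.5e-13). After LPS it was at 761, 771 and 755 FPKM in WT and 305, 308 and 326 FPKM in Pim1-/- libraries (-1.28 ± 0.04, limma adjusted p 1.4e-13). Mcmbp, which binds the Mcm ring subunits, was at 11.9, 12.2 and 11.9 FPKM in untreated WT and 13.6, 13.6 and 13.5 FPKM in untreated Pim1-/- libraries. After LPS Mcmbp was at 49, 47.9 and 45.9 FPKM in WT and 19.9, 20.1 and 20.1 FPKM in Pim1-/- libraries (-1.21 ± 0.04, limma adjusted p 5.1e-13). Its response to LPS differed between genotypes by -1.37 ± 0.06 (limma adjusted p 2.7e-11).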

How the data were processed

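RNA-seq measured polyadenylated RNA of BMDMs in 12 libraries. The authors prepared stranded mRNA libraries, trimmed, aligned and quantified the reads, and deposited 1 column of values per library. According to the submitters' processing notes the tools were bcl2fastq 2.20.0.422, cutadapt 1.18, TopHat2 2.0.13 and Cuffdiff 2.2.1 with build mm10, whereas the published methods name a rat build. The deposited values carry no unit and were read as FPKM, as Cuffdiff reports, which are levels scaled between libraries and hold no counts. The scaling used is not given in the sources used here.

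Values were analysed as log2(FPKM + 1) with limma 3.58.1 in R 4.3.3 (linear model over 4 group means, moderated with a trend), over 10581 genes at 1 FPKM or more in at least 3 libraries. A log2 difference on this scale understates the change of low genes. Contrasts were Pim1-/- minus WT in each treatment, LPS minus untreated in each genotype, and the difference of the latter. Calls followed the thresholds of the study (more than 2-fold, p under 0.05, Benjamini-Hochberg FDR under 0.1). The fit was tested on simulated data, with changes placed only in the LPS-treated Pim1-/- group and only outside the low genes. It therefore does not cover changes in low members or between untreated genotypes. Tables and figures were made in Python 3.11.15.

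The members and all gene lists were chosen with earlier results of these data known. Members named in the text are Mcm2 to Mcm7, Pcna, 2810417H13Rik, the extremes of each role, members that failed the limit or reversed, and the 5 lowest and 5 highest differences in response. Further members were named after their values were seen, as partners of these or to complete a role. Of the other replication genes, the text names the largest difference in each role and those called lower in Pim1-/- cells, and 1 gene that this rule names is not reported here.

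Replicate numbers of the groups were checked for pairing by the correlation of deviations from group means. Over 3646 genes at 10 FPKM or more in all libraries these ran from -0.17 to 0.68, with every number over 0.1 in 2 of 6 group pairs, and over the genes tested from -0.09 to 0.34, in 0 of 6. The numbers were not taken as pairs. Alternatives tried were another pseudocount, no or a stricter filter, 3 scalings, fits of the compared groups alone, a replicate block, no trend, no fold limit and leaving out each library. The scaling to equal sums was added after seeing the data. Promoters came from RefSeq (GRCm38.p6). A genome FASTA, protein sequences and the reads were not used here.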

Additional observations from a re-analysis of the deposited data

Results flagged for a closer look

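The difference between genotypes in the response to LPS passed the calling limits in 16 members and 12 other replication genes, each lower in Pim1-/- cells on the log2(FPKM + 1) scale, beside 4.43% of all genes called lower and 2.24% called higher. For the members the values are a description and no test, since the list was drawn up with results of these libraries known. Cdc6, Uhrf1, Dtl, Clspn, Brca1 and Exo1 passed the limit on low values only through Pim1-/- libraries. Uhrf1 (-2.24), Dtl (-2.05), Clspn (-1.79), Timeless (-1.77) and Rrm2 (-1.64) had the lowest values. As a ratio of mean FPKM, LPS over untreated, Clspn went the other way, at 0.0878 in Pim1-/- and 0.0295 in WT cells. Brca1 (-1.44), Tk1 (-1.41), Orc6 (-1.33), Cdc6 (-1.33), Pold2 (-1.26) and Pcna (-1.17) followed. Chaf1a (-1.10), Exo1 (-1.07), Rfc3 (-1.05), Tipin (-1.03) and Mcm6 (-1.0) were nearest the 2-fold limit.

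Among the other genes, with limma adjusted p-values where given, the difference was -1.85 for Brip1 (5.9e-11), a helicase partner of Brca1, and -1.71 for Dck (7.6e-12), the deoxycytidine kinase. It was -1.52 for Wdhd1 (2.2e-09), -1.51 for Cdc7 and -1.37 for Mcmbp (2.7e-11) by the same limma test. It was -1.35 for Chek1 and -1.35 for Rad51ap1. For Ung, the uracil glycosylase, it was -1.26, for Hells, a chromatin remodeler, -1.25, and for Dscc1 -1.23. For Slbp, which binds histone mRNA, it was -1.22 (6.1e-10), and for Ticrr, which helps load Cdc45, -1.01. Brip1, Dck, Ung, Hells, Slbp and Ticrr were named because the difference in response passed the test, after their values were seen. Wdhd1 and Mcmbp were named for genotype differences that share libraries with the response. The p-values given here therefore add no support. Cdc7, Ticrr, Dscc1, Hells, Chek1, Rad51ap1 and Ung, given with no p, had no WT library at 1 FPKM and passed the limit on low values only through Pim1-/- libraries. With a pseudocount of 0.1 Dscc1 was at -0.54 and no longer called. As ratios of mean FPKM, LPS over untreated, Dscc1 and Ticrr went the other way. They were at 0.208 and 0.0701 in Pim1-/- cells and at 0.0954 and 0.0561 in WT cells. Brip1 and Dck were higher after LPS in WT, by 1.16 and 3.14, and in Pim1-/- cells they were at -0.69 and 1.42.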

How the results depend on the processing

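Counts of calls were each taken in a direction fixed for the comparison, so they cannot show a change of direction. It was higher for Pim1-/- against WT, and lower for LPS against untreated and for the response. Without a fold limit and with FDR under 0.05, other genes called higher in Pim1-/- cells numbered 62 without and 58 with LPS, beside 32.7% and 35.7% of all genes. By that setting members called lower after LPS numbered 35 in WT and 43 in Pim1-/- cells and other genes 39 and 53 (44.5% and 42.6% of all genes), and differences in response 36 members and 46 others (33.3%). With a pseudocount of 0.1, 31 other genes were called higher in LPS-treated Pim1-/- cells (6.78% of all genes), 24 members and 27 others were called lower after LPS in WT (21.1%), and the member medians were 2.48, 1.89, -1.01 and -1.23 (genotype without and with LPS, LPS in WT and Pim1-/-). With a limit of 5 FPKM, 17 other genes were called higher in untreated Pim1-/- cells, 13 lower after LPS in Pim1-/- cells and 6 lower in response (4.46%, 10.3% and 4.92% of all genes), with member medians of 1.25 (genotype with LPS) and -0.62 (response) over 43 members. Quantile normalization gave medians of 2.18 (genotype without LPS), -0.30 and -1.31 (LPS in WT and Pim1-/-) and -1.0 (response). Equal sums gave medians of 2.13, -0.87 and -1.68, and 23 members and 24 others called lower after LPS in WT and 41 and 44 in Pim1-/- cells, where 35.0% and 26.3% of all genes were called lower. The cause of these shifts was not tested.

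Leaving out 1 library gave 40 to 45 and 29 to 31 members called higher in Pim1-/- cells without and with LPS, 11 to 13 and 21 to 28 called lower after LPS in WT and Pim1-/- cells, and 9 to 17 lower in response. The 9 came without untreated Pim1-/- replicate 1, when 43 members passed the limit on low values. Cdc6, Dtl, Clspn, Brca1 and Exo1 reached 1 FPKM only in the 3 untreated Pim1-/- libraries, so leaving out any of these removes them from the test. Other genes numbered 27 to 34, 17 to 18, 10 to 12, 18 to 25 and 9 to 12. Member medians ran from 1.91 to 2.03, 1.10 to 1.176, -0.52 to -0.46, -1.12 to -1.07 and -0.77 to -0.67. Where 2 libraries remained in a group, the fit still shared its spread with the others.

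LPS differences of other genes turned negative with equal sums for Pole4 in WT (-0.18) and Pim1-/- cells (-0.55), Rnaseh2b in Pim1-/- cells (-0.067) and Mcmbp in Pim1-/- cells (-0.10), and with quantile normalization for Pole4 in Pim1-/- cells (-0.27). The difference in response of Samhd1 turned positive, to 0.26 with quantile normalization and 0.016 with equal sums. The replicate block gave the same counts: 45 and 31 members higher in Pim1-/- cells, 11 and 27 lower after LPS and 16 lower in response. Values under 0.1 FPKM rest on few fragments, so the size of genotype ratios of the lowest genes after LPS could not be resolved at this depth.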
